A study of Mus musculus with 278 samples.

Results

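The SR and hnRNP splicing factor genes described here are the 37 rows of the expression matrix, of 14145 in all, whose symbols are Srsf followed by a number, Hnrnp followed by letters or numbers, Sf3a or Sf3b followed by a number, U2af1 or U2af2. They comprise 9 SR genes, 18 hnRNP genes and 10 genes of the SF3 and U2AF complexes. Srsf3, Srsf9, Hnrnpa3, Hnrnpd and U2af2 were not analysed here. RNA was sequenced from single mouse keratinocytes, the epithelial cells that build the epidermis. They came from adult dorsal skin and were cultured as 9 parts wild-type (WT) cells to 1 part K14ΔNβ-cateninER cells. In the latter the keratin 14 promoter drives a stable beta-catenin joined to part of the oestrogen receptor, so that 4-hydroxy-tamoxifen (4OHT) switches it on. Treated co-cultures received 200 nM 4OHT for 24 h and untreated co-cultures received the solvent DMSO, so that both arms contained transgenic cells. Transgenic cells were not told apart from WT cells in the values used here. The library names fall into 2 series, AG and GHA501A, each with untreated and treated cells: 66 and 64 cells in AG, and 71 and 69 in GHA501A. Another 8 cells, whose name and treatment label disagreed, were set aside.

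SR proteins bind exonic enhancers through RNA recognition motifs and recruit the splicing machinery through domains rich in arginine and serine. Heterogeneous nuclear ribonucleoproteins (hnRNPs) coat nascent transcripts and often repress the exons they bind, so the balance between both families sets the inclusion of many alternative exons. U2AF recognises the 3′ splice site, and the SF3a and SF3b subunits, as parts of the U2 snRNP, hold the branch point. In epithelial cells the regulators Esrp1 and Esrp2 add an epithelial splicing programme, which is lost when cells take on mesenchymal properties.

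Each library is 1 cell, and cells of a library set (1 series and 1 treatment) were not counted as replicates. Levels are TPM, a length-corrected abundance that the authors scaled to a total of 1000000 in every cell, so that the table holds no sequencing depth for the single cells. The cells had between 2538 and 7592 genes over 1 TPM, with set medians of 6008 to 6392. The cell type label was checked against marker genes. With Krt14, a keratin of basal keratinocytes, and Col1a1, a fibroblast collagen, each at a limit of 100 TPM, 64 of 66 untreated and 59 of 64 treated AG cells were Krt14-high. In GHA501A, 60 of 71 untreated and 49 of 69 treated cells were Col1a1-high, against 8 and 10 that were Krt14-high. Cells high for both markers were kept apart from these classes. They numbered 2 untreated and 4 treated in AG, and 2 and 10 in GHA501A. The summed level of 12 keratinocyte markers had medians of 10193 and 10269 TPM in the untreated and treated AG cells, with 1 of the 12 at 0 in every cell of each set, but 14.8 and 49.4 TPM in GHA501A, where none was at 0 throughout. For 9 fibroblast markers the medians were 31.8 and 20.8 TPM in AG and 2479 and 2090 TPM in GHA501A. The label keratinocyte is therefore not borne out by the markers in most GHA501A cells, and series and cell make-up largely move together. Within GHA501A the make-up also differed between untreated and treated cells, with more treated cells high for both markers.

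The promoters of 5 members that stand out in the results below are shown, though those results make no use of the sequences. Srsf7 and Hnrnpa1 differed most between the series, and Srsf2 was the highest SR gene in AG. Hnrnpa2b1 and Hnrnpu followed each other most closely from cell to cell. Each line holds the 250 bases before the RefSeq transcription start on GRCm38.p6, at chr17:80207306-80207555 for Srsf7, chr11:116853095-116853344 for Srsf2, chr6:51469846-51470095 for Hnrnpa2b1 and chr1:178337816-178338065 for Hnrnpu, all on the minus strand, and at chr15:103240147-103240396 on the plus strand for Hnrnpa1. Capitals mark matches, on either strand, to the CCAAT box, GC box, TATA box and ETS motif spelled out below, and matches that overlap form 1 run of capitals.
Srsf7: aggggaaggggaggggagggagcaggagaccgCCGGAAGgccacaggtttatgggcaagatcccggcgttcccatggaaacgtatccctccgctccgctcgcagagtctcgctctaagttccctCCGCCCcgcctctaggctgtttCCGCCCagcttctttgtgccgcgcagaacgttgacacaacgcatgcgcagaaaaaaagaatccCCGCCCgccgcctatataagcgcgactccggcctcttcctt
Hnrnpa1: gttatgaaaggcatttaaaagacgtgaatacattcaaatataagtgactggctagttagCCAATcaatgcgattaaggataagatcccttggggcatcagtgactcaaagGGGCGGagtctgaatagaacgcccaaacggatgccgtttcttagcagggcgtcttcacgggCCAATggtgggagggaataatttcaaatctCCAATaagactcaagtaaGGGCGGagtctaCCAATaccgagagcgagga
Srsf2: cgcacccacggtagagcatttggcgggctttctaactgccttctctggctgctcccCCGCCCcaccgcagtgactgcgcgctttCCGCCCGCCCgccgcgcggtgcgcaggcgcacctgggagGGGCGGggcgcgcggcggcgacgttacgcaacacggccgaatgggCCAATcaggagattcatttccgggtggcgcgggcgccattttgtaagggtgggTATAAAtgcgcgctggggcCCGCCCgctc
Hnrnpa2b1: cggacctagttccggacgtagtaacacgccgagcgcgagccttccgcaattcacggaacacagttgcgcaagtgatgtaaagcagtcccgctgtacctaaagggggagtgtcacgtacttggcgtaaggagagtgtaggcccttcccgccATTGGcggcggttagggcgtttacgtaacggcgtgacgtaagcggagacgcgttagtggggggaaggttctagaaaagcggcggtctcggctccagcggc
Hnrnpu: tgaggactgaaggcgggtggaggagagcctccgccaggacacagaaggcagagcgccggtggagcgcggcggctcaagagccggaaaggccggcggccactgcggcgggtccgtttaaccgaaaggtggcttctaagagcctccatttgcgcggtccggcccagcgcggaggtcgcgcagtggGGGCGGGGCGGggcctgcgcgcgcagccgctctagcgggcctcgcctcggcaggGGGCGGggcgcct
RefSeq promoters, 300 bases each, were matched for 33 members and not for Hnrnpll, Hnrnpul2, Sf3b4 and Sf3b5. A GC box (GGGCGG) was in 78.8% of the 33, 65.7% of 9651 tested genes with a matched promoter and 35.7% of all promoters. A CCAAT box, read as these letters, was in 54.5% (42.9% and 37.4%). Shares of members and tested genes count genes, a member being counted for a match in any of its promoters. The share of all promoters counts single promoters, so it is not a like measure. The ETS motif (CCGGAAG) was present in 33.3% (19.1% and 8.86%), an E-box (CACGTG) in 9.09% (11.2% and 7.15%) and a TATA box (TATAAA) in 12.1% (9.23% and 13.6%). Median GC content was 62.7% in the members and 60.3% in the genes tested. Both strands were searched. These are matches of letters in a window and no test was made of them.

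Members that were abundant in both series are described first. Srsf2, an SR protein needed for exon definition, ranged from 75.3 to 2375 TPM (median 751) in untreated AG cells and from 16.3 to 3373 (median 441) in treated ones. In GHA501A its range was 52.4 to 5039 TPM (median 500) in untreated and 8.88 to 3516 (median 456) in treated cells. It was over 1 TPM in every cell, and its ranges overlapped in all 4 sets.

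Of the remaining SR genes, Srsf6 had medians of 48.9 and 51.6 TPM in the untreated and treated AG cells and of 24.3 and 25.6 TPM in GHA501A. Srsf10, a splicing repressor when dephosphorylated, had medians of 38.99 and 39.6 TPM in AG and of 98.3 and 81.01 TPM in GHA501A. Srsf4 was over 1 TPM in 32 of 66 and 37 of 64 AG cells and in 43 of 71 and 34 of 69 GHA501A cells. The ranges of these 3 genes overlapped in all sets. Srsf12 was the lowest member in GHA501A by mean level, over 1 TPM in 5 and 2 AG cells and in 2 and 3 GHA501A cells, untreated and treated. A single cell held 89.5% of its total in untreated AG and 89.7% in treated GHA501A.

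Hnrnpa0, an hnRNP that binds AU-rich RNA, had medians of 436 and 295 TPM in the untreated and treated AG cells and of 540 and 317 TPM in GHA501A. Hnrnpa2b1, which acts in splicing and RNA transport, had medians of 211 and 188.3 TPM in AG and of 259 and 234 TPM in GHA501A. It was over 1 TPM in every cell of the 4 sets, with a widest range of 1.81 to 2911 TPM among treated AG cells. Hnrnpu, a nuclear scaffold protein, lay at 212 and 172 TPM in AG and at 264 and 182.2 TPM in GHA501A, again in every cell. These 3 abundant hnRNP genes overlapped between all 4 sets.

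Hnrnpk, which binds C-rich RNA and DNA, had medians of 140 and 195 TPM in the untreated and treated AG cells and of 158.7 and 133.2 TPM in GHA501A, with 0 TPM in 1 untreated AG cell. Hnrnph1, which binds G-rich elements, had medians of 124 and 93.5 TPM in AG and of 88.6 and 86.3 TPM in GHA501A. Hnrnpl, which binds CA repeats, was lower, with medians of 29.7 and 21.2 TPM in AG and of 52.6 and 38.2 TPM in GHA501A. Its paralogue Hnrnpll was the lowest hnRNP gene by the mean over both series but not within either, with medians of 4.47 and 6.83 TPM in AG and of 10.3 and 4.82 TPM in GHA501A. Hnrnpr followed, at set medians of 6.27 to 12.9 TPM. The values of each of these genes overlapped in all 4 sets. Set medians lay between 57.2 and 90.5 TPM for Hnrnph2, between 0.947 and 18.1 TPM for Hnrnph3 and between 5.92 and 23.2 TPM for Hnrnpul2.

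Among the SF3 genes, Sf3b6, the subunit that contacts the branch point adenosine, had medians of 358 and 393 TPM in the untreated and treated AG cells and of 623 and 500 TPM in GHA501A. Sf3b2 had set medians of 232 to 371 TPM. Sf3b1, the largest subunit and the scaffold of the complex, had medians of 182.1 and 165.995 TPM in AG and of 144.1 and 123 TPM in GHA501A. Its mean in treated AG cells, 415 TPM, rested on 1 cell at 14992 TPM, which held 56.5% of the set's total, and was 183.2 TPM without it. Sf3b3 was similar, with 60.2% of its untreated AG total in 1 cell and a mean of 124.8 TPM with and 50.4 TPM without that cell. The means of these large subunits thus rested on single cells where their medians did not. Set medians lay between 56.95 and 125.2 TPM for Sf3a3, between 34.4 and 59.7 TPM for Sf3b4 and between 34.3 and 64.8 TPM for Sf3b5. Sf3a1 had set medians of 7.85 to 29.7 TPM, and Sf3a2 was the lowest gene of its family in GHA501A, below which only U2af1 lay in AG. Sf3a2 was at 0 in 53 of 66 and 45 of 64 AG cells and in 36 of 71 and 34 of 69 GHA501A cells, untreated and treated.

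The first comparison asks whether the members lay at the same level in both series. For 10 members the means of both AG sets lay far below those of both GHA501A sets. Srsf7, an SR protein that also acts in mRNA export, was listed at 0 in 60 of 66 untreated and 53 of 64 treated AG cells, and its highest AG value was 4.79 TPM. In GHA501A it ranged from 24.6 to 3317 TPM (median 583) in untreated and from 2.90 to 1859 TPM (median 541) in treated cells. The series overlapped only at the low end of treated GHA501A cells. Hnrnpa1, among the most abundant hnRNPs of mammalian nuclei, was listed at 0 in 42 of 66 and 39 of 64 AG cells and reached 22.002 TPM there. In GHA501A it ranged from 332 to 3169 TPM (median 1257) in untreated and from 80.5 to 2168 TPM (median 929) in treated cells, so that no cell of one series reached the range of the other. Hnrnpc, which binds uridine tracts, was listed at 0 in 59 of 66 and 55 of 64 AG cells, against medians of 222 and 178 TPM in untreated and treated GHA501A cells.

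**Figure D1:**
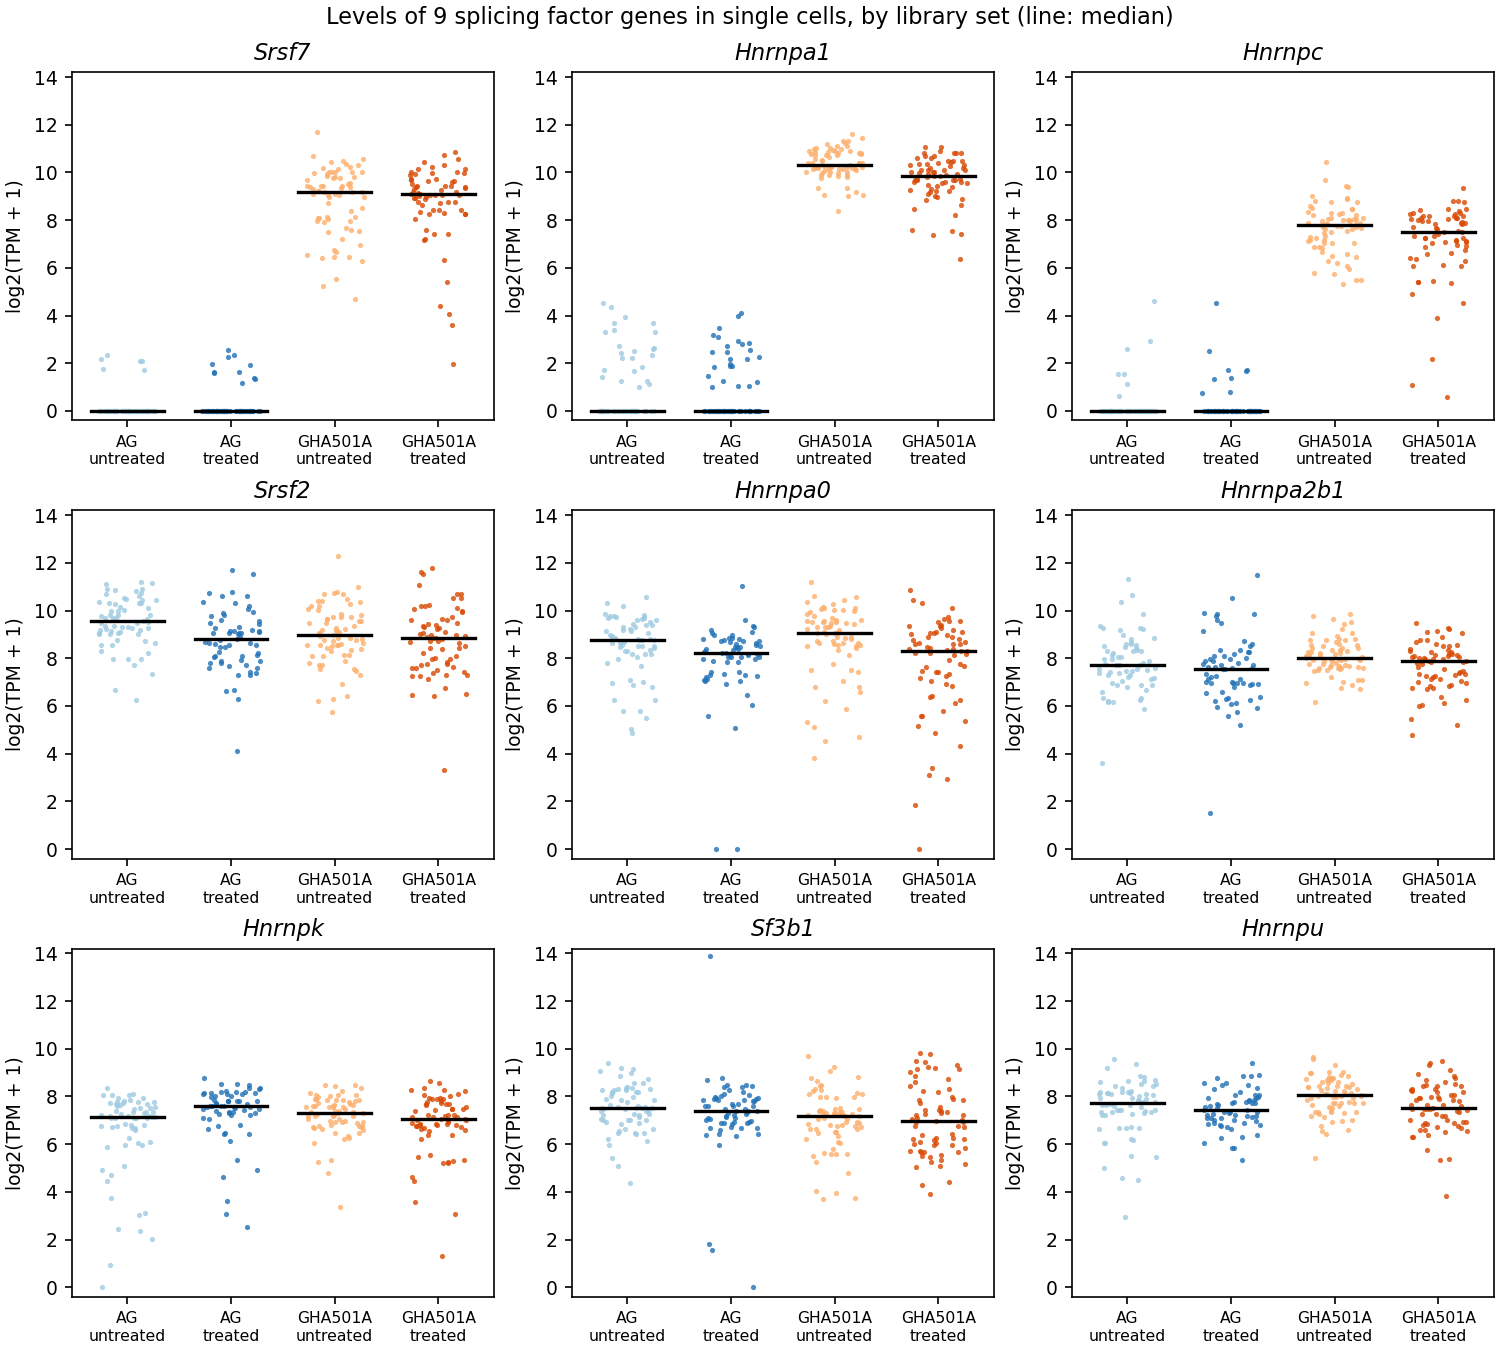
Levels of 9 splicing factor genes in single cells, as log2(TPM + 1), by library set. Each point is 1 cell and each line the set's median. Srsf7, Hnrnpa1 and Hnrnpc lay at or near 0 in the 130 AG cells and high in the 140 GHA501A cells, while the other 6 genes overlapped in all 4 sets, and 1 treated AG cell held 14992 TPM of Sf3b1.

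The other 7 were Srsf1, Srsf5, Srsf11, Hnrnpf, Hnrnpm, Hnrnpab and U2af1. Srsf1, the founding SR protein, had means of 0.681 and 0.595 TPM in the untreated and treated AG cells and medians of 45.4 and 50.9 TPM in GHA501A. Srsf5 and Srsf11 had GHA501A medians of 66.3 to 72.8 and of 86.5 to 88.7 TPM, with highest AG cells at 17.2 and 2.37 TPM. For Srsf11 the lowest GHA501A cell, at 2.83 TPM, lay above every AG cell. Hnrnpf, a G-tract binding protein, had GHA501A medians of 92.98 and 76.8 TPM and a highest AG cell of 6.87 TPM. Apart from Srsf11, the ranges of these genes overlapped at the low end of GHA501A. Hnrnpm had GHA501A medians of 54.98 and 68.7 TPM and a highest AG cell of 5.56 TPM. U2af1, which reads the AG dinucleotide at the 3′ splice site, was listed at 0 in 59 of 66 and 52 of 64 AG cells, and had GHA501A medians of 19.3 and 12.0 TPM. Hnrnpab was the highest of the 10 in AG, with means of 6.82 and 3.31 TPM against 167.4 and 135.6 TPM in GHA501A. It was over 1 TPM in 45 of 66 and 40 of 64 AG cells, and its highest AG cell was at 101.9 TPM. These 10 were picked after their values were seen, as the members with both AG means under 1/8 of both GHA501A means. Below, near 0 in AG is a short name for meeting this limit. Just outside that limit, Hnrnpul1 had means of 3.98 and 2.996 TPM in AG and of 30.9 and 41.9 TPM in GHA501A.

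Library sets were compared with limma's moderated test on log2(mean TPM + 1), with treatment as a block and Benjamini-Hochberg adjustment over 12355 genes. A gene was called at an adjusted p under 0.05 and an absolute log2 difference over 0.5. In AG, 13 of 37 members (35.1%) were lower, against 20.1% of all genes tested, and 0 were higher, against 13.6% of all genes. The median difference was -0.33 over the members and -0.01 over all genes. With every set shifted to the same median level, the median of all genes moved to 0.26 and that of the members to -0.06, and the share of lower calls among all calls moved from 59.7% to 47.2%. The largest differences (AG minus GHA501A) were those of Srsf7 at -8.84 (95% interval -9.68 to -8.00, adjusted p = 0.00019), Hnrnpa1 at -8.56 (-9.27 to -7.84, adjusted p = 0.000162) and Hnrnpc at -7.11 (-8.07 to -6.15, adjusted p = 0.000357). Srsf11 at -6.46 and Hnrnpf at -5.93 came next. Srsf5, Hnrnpm, Srsf1, Hnrnpab and U2af1 had differences of -5.93, -5.90, -5.48, -4.71 and -4.27. With AG values near 0 the size depends on the constant added: at a pseudocount of 0.1 the difference of Srsf7 was -10.4 and that of U2af1 -5.33.

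Hnrnpul1 was also lower in AG (-3.05, adjusted p = 0.00437), as were Srsf10 (-1.17, adjusted p = 0.0216) and Sf3a3 (-0.80, adjusted p = 0.0496). The last 3 were called less firmly, since leaving out 1 AG set ended the call of all 3 and leaving out 1 GHA501A set that of Srsf10 and Sf3a3. By family, 5 of 9 SR, 6 of 18 hnRNP and 2 of 10 SF3 and U2AF genes were lower, beside 20.1% of all genes tested. These counts include the 10 members picked for the gap. The other 24 members were not called. Among these, Srsf2 differed by 0.14 (95% interval -0.36 to 0.64), Hnrnpa2b1 by 0.19 (-0.33 to 0.71), Hnrnpk by 0.04 (-0.63 to 0.70) and Hnrnpu by -0.25 (-0.78 to 0.29). Hnrnph3 had the highest difference of any member, 0.74 (-0.21 to 1.69, adjusted p = 0.197).

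**Figure D2:**
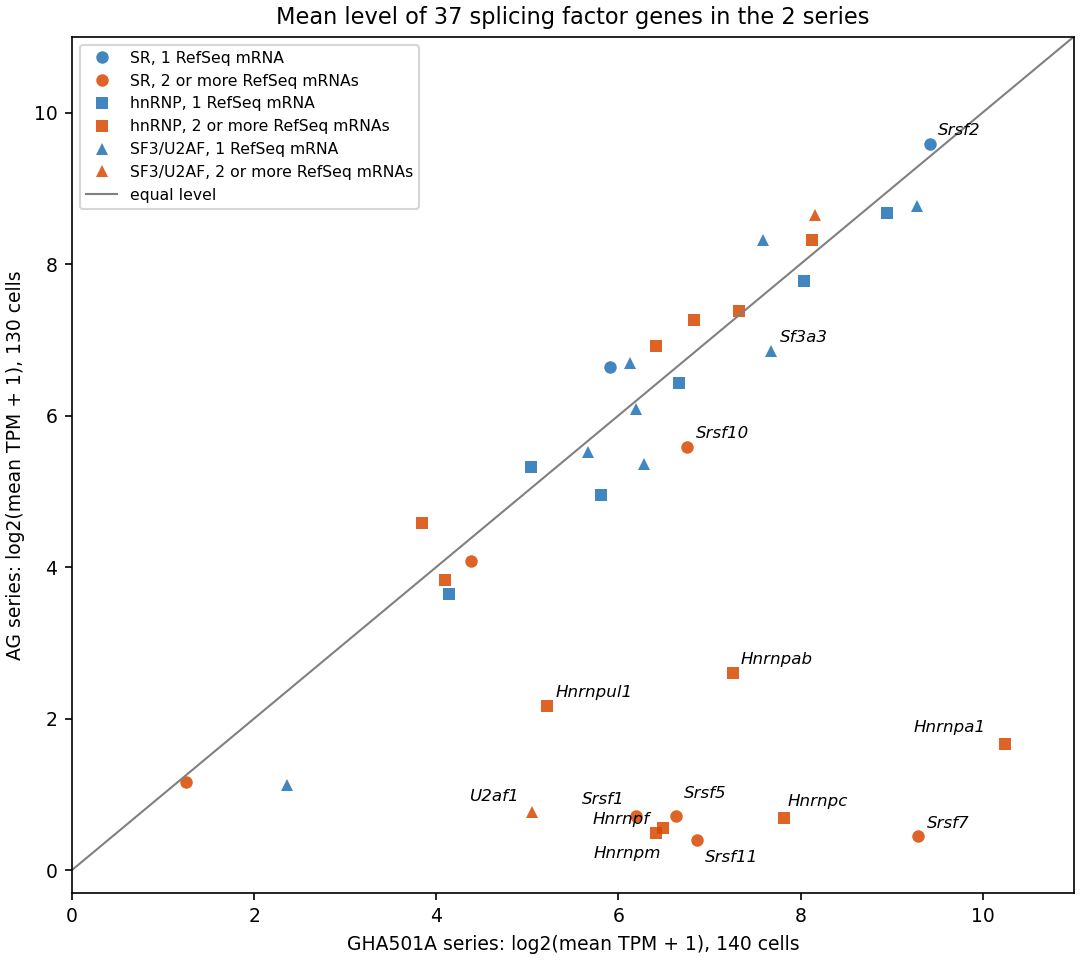
Mean level of the 37 members in GHA501A (x axis, 140 cells) and AG (y axis, 130 cells), as log2(mean TPM + 1). Marker shape gives the family and colour the number of RefSeq mRNAs of the gene; the line marks equal levels. The 10 members with both AG means under 1/8 of both GHA501A means lie far below the line. All 10 have 2 or more RefSeq mRNAs.

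The cell make-up of the series moves with this difference, so the comparison was repeated in Krt14-high cells, 64 and 59 in AG and 8 and 10 in GHA501A. In that fit 8.85% of the genes tested were lower in AG. All 10 members near 0 in AG were called lower, and the other 3 were not. Most AG cells are in both comparisons, and the 10 were picked for this gap in these data, so this is no independent repeat. In these keratin-expressing GHA501A cells Srsf7 ranged from 187.1 to 979 TPM (median 552) in the 8 untreated and from 2.90 to 1399 TPM (median 324) in the 10 treated cells. Hnrnpa1 ranged from 1005 to 2782 TPM (median 1779) and from 80.5 to 1416 TPM (median 680). The differences in these cells were -8.57 for Srsf7, -8.45 for Hnrnpa1 and -4.92 for U2af1.

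The number of RefSeq mRNAs of a gene also moved with the difference. Each of the 10 members had 2 or more (median 4, range 2 to 18), whereas 11 of the other 27 did (median 1). Over all genes with a mean of at least 20 TPM in a series, both AG means were under 1/8 of both GHA501A means for 3.10% of 3833 genes with 1 RefSeq mRNA and 26.8% of 2247 with 2 or more. Of the members at that level it was 0 of 14 and 10 of 18. The 10 were picked by this same rule and reached 20 TPM only in GHA501A, so their number restates that choice. When genes with 1 RefSeq mRNA were fitted alone, 10.9% of them were lower in AG, and 1 of the 16 such members was, Sf3a3. None of the 10 could be in that fit. In the fit of all genes, 10.7% of genes with 1 RefSeq mRNA and 33.9% of those with 2 or more were lower in AG. Of the members it was 1 of 16 and 12 of 21, and the 12 include the 10 picked for the gap. The transcript annotation behind the TPM of either series is not given in the sources used here, and its part in the result was not tested.

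**Figure D3:**
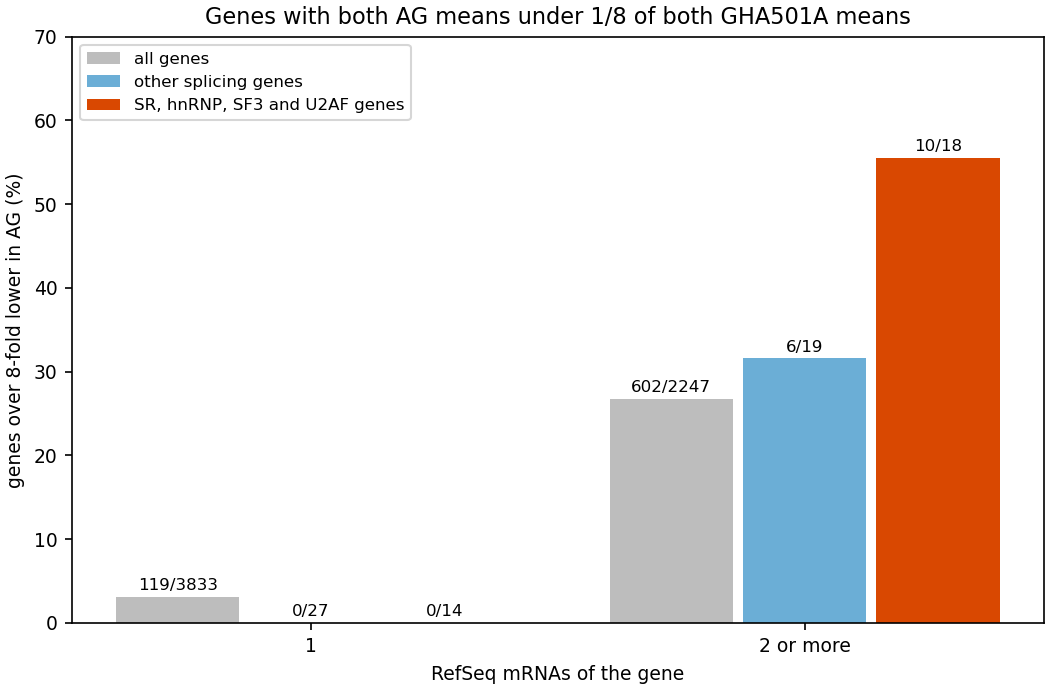
Percentage of genes with both AG means under 1/8 of both GHA501A means, by the number of RefSeq mRNAs of the gene, among genes with a mean of at least 20 TPM in a series. Bars are all genes, the other splicing genes and the SR, hnRNP, SF3 and U2AF genes, with counts above. The criterion was met by 0 of 14 members with 1 RefSeq mRNA and by 10 of 18 with 2 or more. These 10 were picked by the same criterion.

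Rows that resemble 2 of the members by name lay the other way; both were looked up after these values were seen. Hnrnpa1l2-ps2, a pseudogene related to Hnrnpa1, had medians of 188.6 and 228 TPM in untreated and treated AG cells and of 15.7 and 22.7 TPM in GHA501A, and was higher in AG by 3.29 (95% interval 2.61 to 3.97, adjusted p = 0.000829, limma). U2af1l4, a paralogue of U2af1, was over 1 TPM in 42 of 66 and 42 of 64 AG cells and in 0 GHA501A cells, with a difference of 3.04 (1.97 to 4.11, adjusted p = 0.00394, limma). The authors discarded reads that mapped to several places, so levels of genes with near-identical copies, Hnrnpa1 among them, are uncertain in both series. The part of this in the opposite differences was not tested.

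Other splicing genes, taken from a list of 65 of which 57 were tested, were called lower in AG for 18 and higher for 5. Of all genes tested, 20.1% were called lower and 13.6% higher, which is the background for these counts and for those below. Of the snRNP core genes, 3 of 12 were lower, with Snrpa at -4.44, Snrpf at -1.08 and Snrpb at -0.85. Puf60, a partner of U2AF, was the only one of 11 other spliceosome genes called lower, at -7.19. Srpk1 and Srpk2, kinases of SR proteins, lay on opposite sides, at -2.81 and 1.51. Of 30 other regulators 13 were lower and 4 were higher. Esrp1 and Esrp2, the epithelial regulators, were higher in AG by 2.05 (adjusted p = 0.0255) and 1.75 (adjusted p = 0.0236). The means of Esrp1 were 21.8 and 18.01 TPM in untreated and treated AG cells and 2.76 and 5.73 TPM in GHA501A. In Esrp2 the AG means of 26.2 and 32.96 TPM stood beside medians of 0 and 0.320 TPM and single cells of 1296 and 1648 TPM. Its GHA501A medians were 1.54 and 0.334 TPM, so that its medians did not follow the order of its means. Rbfox2, which promotes mesenchymal exons, and Ptbp1, a repressor, were lower in AG, with differences of -4.01 and -4.13 and highest AG cells of 8.52 and 1.59 TPM. Like the 10 members they have several RefSeq mRNAs, 12 for Rbfox2 and 3 for Ptbp1, as do Puf60 with 7 and Snrpa with 3, and the part of that number in their differences was not tested either. Qk, also linked to mesenchymal splicing, was not called (-0.51, adjusted p = 0.215).

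Inside GHA501A, Krt14-high cells (8 untreated and 10 treated) were compared with Col1a1-high cells (60 and 49). No member and no other gene was called (0% of 12355), at an unadjusted p under 0.05 for 2 members and 1686 genes (limma). The median difference was -0.15 over the members and -0.17 over all genes. Srsf12 had the largest difference, 3.55 (95% interval 1.83 to 5.26, adjusted p = 0.267). It was over 1 TPM in 2 of the 8 and 3 of the 10 Krt14-high cells and listed at 0 in each of the 60 and 49 Col1a1-high cells. Hnrnpab lay higher in Krt14-high cells in both sets (0.70 and 0.67), and Srsf5 lower in both (-0.80 and -1.47), neither being called. U2af1 (0.73), Srsf4 (-1.27) and Sf3b6 (-0.73) completed the 3 largest differences in each direction. The 95% intervals were wide, from -1.18 to 0.47 for Srsf7 and from -1.27 to 1.09 for Hnrnpa1, so an uncalled difference does not show equal levels. On simulated data this fit recovered 0% of changes of 1, 2 or 4 on the log2 scale.

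The second question is whether 4OHT treatment of the co-culture changed the level of the splicing factors. Treated and untreated sets were compared with limma with the series as a block. No member and no other gene was called in either direction (0% of 12355), with 1 member and 486 genes (3.93%) at an unadjusted p under 0.05. On simulated data the same fit recovered 96.5% of changes of 4 on the log2 scale and 0% of changes of 1 or 2. A count of 0 therefore does not show that the members did not differ. The median difference (treated minus untreated) was -0.11 over the members and -0.00089 over all genes. By series, the median over the members was -0.19 in AG, where the median of all genes was -0.07, and -0.08 in GHA501A, where that of all genes was 0.06. Of the members, 16 were lower in both series and 3 higher in both, beside 23.8% and 23.5% of all genes tested.

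The member with an unadjusted p under 0.05 was Hnrnpa0. Its values ranged from 27.9 to 1518 TPM in untreated and from 0 to 2099 TPM in treated AG cells, and from 12.97 to 2333 and from 0 to 1862 TPM in GHA501A. The ranges overlapped, and the set means were 481 and 332 TPM in AG and 605 and 377 TPM in GHA501A. The difference was -0.53 in AG and -0.68 in GHA501A, and -0.61 in the fit (95% interval -1.09 to -0.13, adjusted p = 0.998). The difference of Hnrnpa0 fails the correction over all genes.

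Srsf12 differed by -0.98 (-2.14 to 0.18), resting on 7 cells over 1 TPM in AG and 5 in GHA501A, and Hnrnpab by -0.58 (-1.46 to 0.30). On the other side were Sf3b1 (0.58), Sf3a2 (0.48) and Sf3a3 (0.46). The value of Sf3b1 was 0.02 when the highest cell of each set was left out, and -0.12 when logs were averaged over cells, so that its size rests on the highest cells of the sets. Hnrnpk, at 0.54 in AG and -0.16 in GHA501A, lay on opposite sides in the series. By family the medians were -0.15 for SR, -0.21 for hnRNP and 0.07 for SF3 and U2AF genes, with 3 of 9, 5 of 18 and 7 of 10 positive. The 95% intervals of Srsf2 (-0.80 to 0.19) and Hnrnpa2b1 (-0.73 to 0.30) show how far a difference could reach in abundant members. Since each treated and untreated set of a series is 1 set, treatment and library set cannot be told apart within a series. Cell make-up by the markers also differed between the GHA501A arms, and its part in the differences was not tested.

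**Figure D4:**
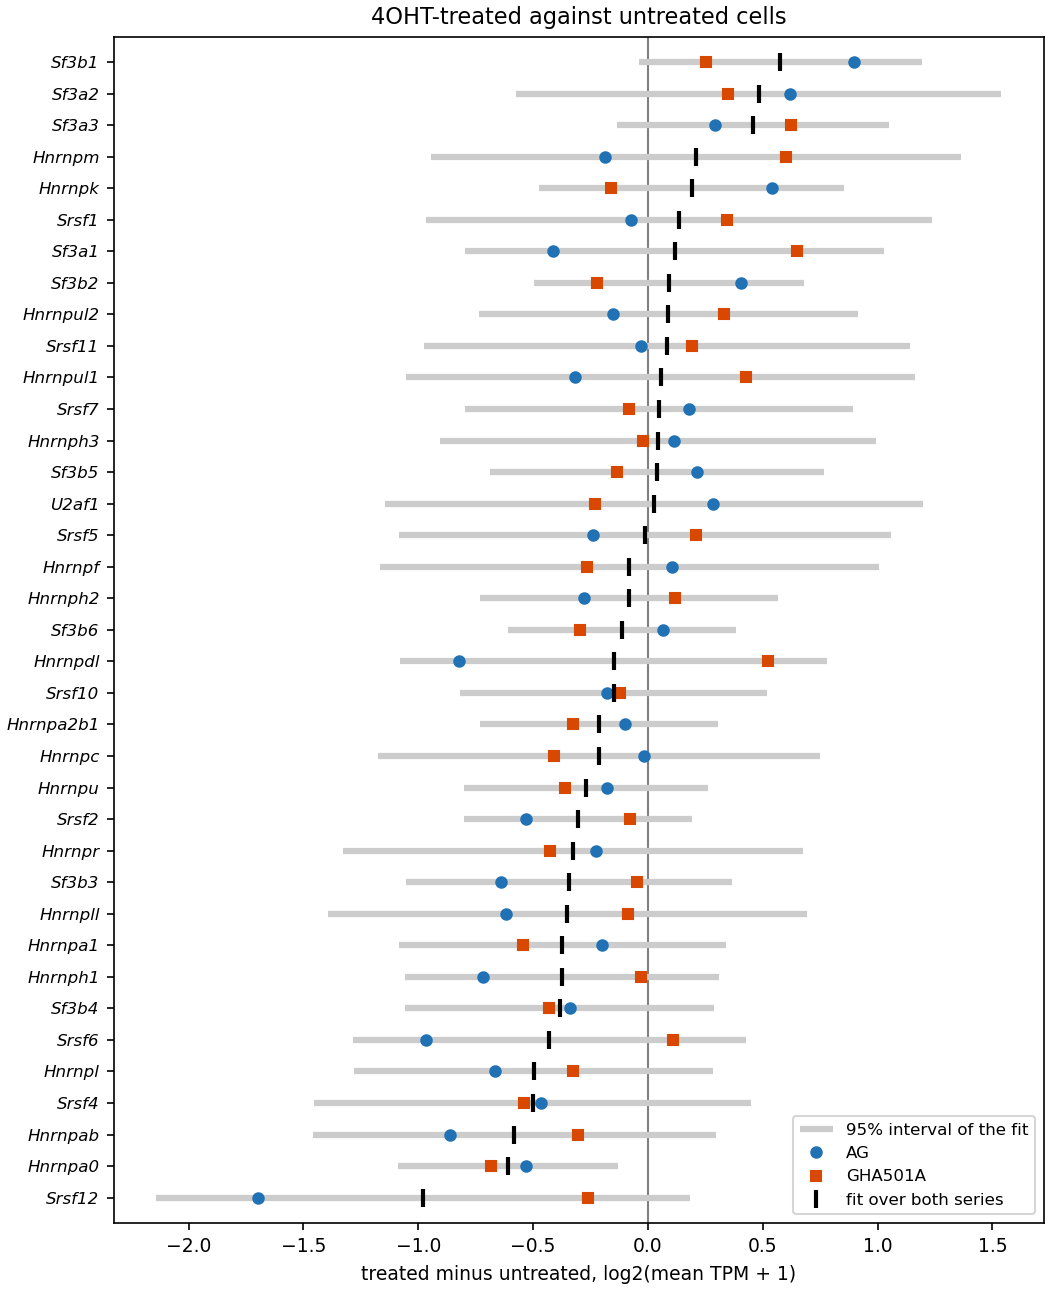
Difference between 4OHT-treated and untreated cells for the 37 members, in log2(mean TPM + 1), ordered by the fit. Circles are AG, squares GHA501A, black ticks the fit over both and grey bars its 95% interval; 16 members lay below 0 and 3 above 0 in both series, and none was called.

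The third question is whether the members follow proliferation. Within each set, cells were ranked by the mean level of 22 mitotic genes and split into 3 equal parts, of which the highest was compared with the lowest (21 to 23 cells each). Of all genes tested, 1.16% were higher and 0.0486% lower in these cycling-high cells, and 0 of the 37 members were among them. The mitotic genes used for the ranking were not removed from the genes tested, and their rise follows from the ranking. The difference was above 0 for 31 of 37 members, beside 53.8% of all genes, with a median of 0.29 over the members and 0.04 over all genes. It was above 0 in all 4 sets for 14 members, beside 12.0% of all genes, and below 0 in all 4 for 0, beside 7.38%. These counts describe the members and were not tested as a list. At an unadjusted p under 0.05 there were 5 members and 1406 genes (11.4%, limma).

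Srsf7 had the largest difference, 0.76 (95% interval 0.12 to 1.40, adjusted p = 0.342), with 1.19 and 0.97 in untreated and treated GHA501A cells and 0.57 and 0.33 in AG, where its levels are near 0. Hnrnph1 differed by 0.71 (0.20 to 1.22, adjusted p = 0.276), at 0.68 and 0.17 in AG and 0.80 and 1.17 in GHA501A. Hnrnpab differed by 0.69 (-0.0046 to 1.38) and was above 0 in all 4 sets. Sf3b3 (0.60), Hnrnpdl (0.54) and Sf3b1 (0.38) were the other members with an unadjusted p under 0.05. On the other side lay Sf3b4 (-0.25), Srsf12 (-0.18) and Hnrnpa0 (-0.14). Srsf2, the most abundant SR gene of AG cells, differed by 0.04 (95% interval -0.25 to 0.34).

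By set, the median over the members was 0.28 and 0.20 in untreated and treated AG cells and 0.27 and 0.59 in GHA501A. Over all genes it was -0.0080 and 0.0050 in AG and 0.052 and 0.062 in GHA501A. Above 0 were 27 and 21 of the 37 members in AG and 29 and 32 in GHA501A. The share of all genes above 0 was not counted by set. The interaction of cycling with the series was called for 0 genes (limma, 2 members and 1008 genes at an unadjusted p under 0.05), with a member median of -0.32 for AG minus GHA501A. Cycling-high cells also had more genes over 1 TPM, with medians of 6479 against 6175 in untreated and 6553 against 6303 in treated AG cells, and of 6563 against 6056 and 6391 against 5691 in GHA501A. The part of these detected genes in the differences was not tested.

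**Figure D5:**
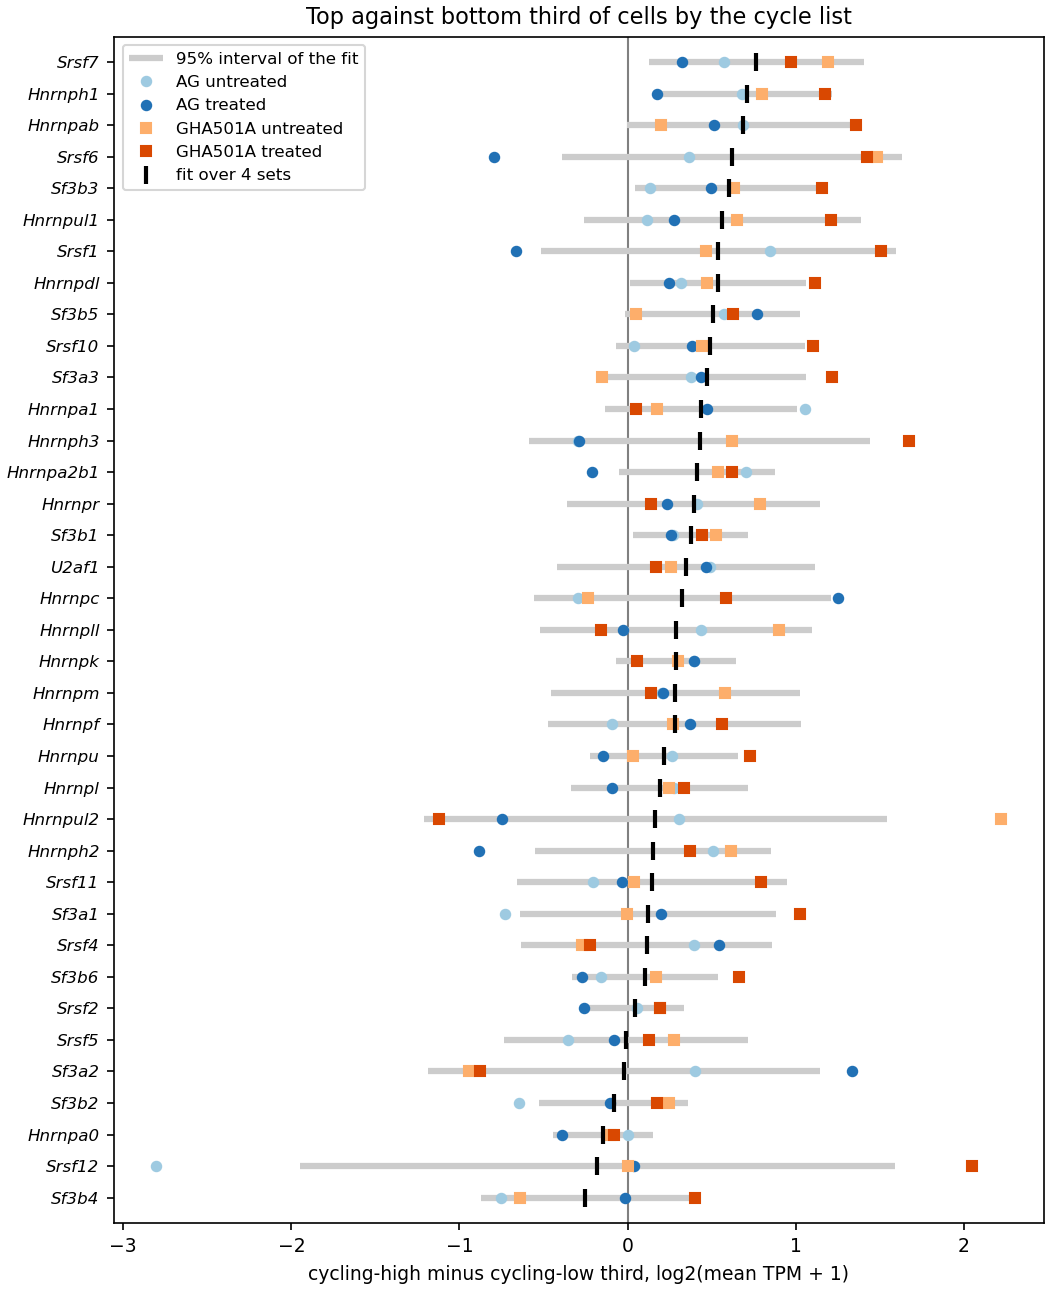
Difference between the highest and lowest of 3 parts of cells ranked by the cycle list for the 37 members, in log2(mean TPM + 1), ordered by the fit. Circles are AG sets, squares GHA501A sets, black ticks the fit over 4 sets and grey bars its 95% interval; 31 members have a fitted value above 0 and none was called.

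Spread between cells was described by the coefficient of variation (CV) of each member with a set mean of at least 10 TPM, against the running median of all genes of similar mean. Below that trend were 11 of 24 members in untreated AG, 15 of 23 in treated AG, 27 of 35 in untreated GHA501A and 24 of 35 in treated GHA501A, where 49.8% to 50.1% of all genes lie by construction. Hnrnpl was the most even member, at -1.58 to -1.03 from the trend on the log2 scale over the 4 sets, followed by Hnrnpk at -1.15 to -0.88. Srsf10, Hnrnpu, Sf3b5 and Sf3b4 were also below it in all 4 sets. Sf3b3 was above it in all 4, by up to 1.997 in untreated AG, and Sf3b1 was 2.66 above it in treated AG; in each, 1 cell held most of the total. Hnrnpf, near 0 in AG, was at -1.10 and -1.38 from the trend in the untreated and treated GHA501A sets.

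Co-variation was weak. The median Spearman correlation over pairs of members was 0.139 in untreated and 0.0857 in treated AG cells (276 and 253 pairs), and 0.0708 and 0.0819 in GHA501A (595 pairs each). Over all pairs of genes with a set mean of at least 10 TPM, the limit also used for members, it was 0.0386, 0.0559, 0.0144 and 0.0215. These pairs were not matched to the members on level. The points are cells that share the number of genes detected and the fixed TPM total, and correlations of members with the number of genes over 1 TPM had medians of 0.115 to 0.212. Given that number, the partial correlations over pairs of members had medians of 0.115, 0.0618, 0.0586 and 0.0496. Over all pairs of genes the partial correlations had medians of 0.0095, 0.0204, 0.0040 and 0.0023. Correlations of members with the cycle list had medians of 0.121 and 0.0879 in AG and of 0.144 and 0.188 in GHA501A.

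Of 253 pairs measured in all 4 sets, 82 had correlations above 0 in each set and 2 were above 0.3 in each. Hnrnpa2b1 and Hnrnpu had 0.584 and 0.452 in untreated and treated AG cells and 0.543 and 0.509 in GHA501A. Hnrnpa2b1 and Hnrnpl had 0.376 and 0.439 in AG and 0.357 and 0.453 in GHA501A. Hnrnph1 and Srsf2 followed with 0.255 to 0.473. The lowest correlations were those of Hnrnpa2b1 with Sf3b4 (-0.345 in treated AG) and of Hnrnpl with Sf3b5 (-0.330 to -0.0803 over the 4 sets). Within GHA501A, where the 10 members near 0 in AG can be followed, 12 of 595 pairs were above 0.3 in both sets, among them Hnrnpu with Srsf1 (0.364 and 0.421) and Hnrnpa1 with Hnrnpk (0.402 and 0.343). These correlations describe the cells of each set and carry no test. Pairs above these limits were not counted over all genes. Each GHA501A set mixes Krt14-high and Col1a1-high cells, and the part of this mix in the correlations was not tested.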

How the data were processed

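Single keratinocytes were captured by the authors on the Fluidigm C1 and their RNA was sequenced from SMART-Seq v4 libraries. Per the labels and the methods of the study, reads were trimmed, aligned to GRCm38 (TopHat), kept where they mapped once and assigned to genes (featureCounts), and the authors deposited TPM. The table holds 294 columns, of which 16 match no label and were not used. Transgenic cells, which the study left out, were not identified here. The labels name no culture, animal or chip, so the spread between sets may be technical and p-values measure only that spread.

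Cells of each set, class or cycle part were averaged and log2(mean TPM + 1) was tested with limma 3.58.1 in R 4.3.3 (mean-variance trend, two-sided, Benjamini-Hochberg over 12355 genes that exceeded 1 TPM in over 5 cells; all 37 members passed). A call needed an adjusted p under 0.05 and an absolute log2 difference over 0.5. The series comparison had treatment as a block, the treatment comparison the series, and the others the set. The fits were tested on simulated data with 200 of 12355 genes changed. Changes of 4 on the log2 scale were recovered at 96.5% for treatment, 99% for the series and 94% for cycling. Changes of 2 were recovered at 39% for cycling and 0% for treatment and series. Changes of 1 were recovered in no fit, and between classes no size was. The series fit of the data called 4162 genes, so its simulation differs from the data. Other steps used Python 3.11.15, numpy 2.4.6, pandas 2.3.3 and matplotlib 3.10.9. Promoters, their starts and mRNA numbers came from RefSeq (GRCm38.p6).

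The members and the gene lists were chosen with earlier results of these data known. Values by set are given for a fixed list of 22 members, of which Srsf3, Hnrnpd and U2af2 were not analysed here, for the 2 highest and 2 lowest of each family, and for the largest differences of each comparison. Other genes named were chosen after their values were seen. Alternatives changed the pseudocount, filter, scaling, average, class limits, block or cells, or left out a set. Fits of genes with 1 RefSeq mRNA, of single series and of the interaction for cycling, and those without a set (classes) or the highest cell, were added after seeing the data.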

Additional observations from a re-analysis of the deposited data

Results flagged for a closer look

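Hnrnpdl, an hnRNP related to Hnrnpd, had a treatment difference of opposite sign in the series: -0.82 in AG and 0.52 in GHA501A, in log2(mean TPM + 1). Its means were 108.8 and 61.2 TPM in untreated and treated AG cells and 82.8 and 120 TPM in GHA501A, where 1 treated cell at 1331 TPM held 16.1% of the set's total. Set medians were 73.96 and 50.5 TPM in AG and 53.2 and 54.2 TPM in GHA501A. It was the only member with differences over 0.5 in opposite directions, and with 1 set per arm and series the difference was not tested.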

How the results depend on the processing

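In the series comparison the 10 members near 0 in AG were called lower under each alternative that fitted all genes. They were picked for this gap in the same cells, so these calls are no separate support. The number of lower members was 10 to 16, and 10 to 11 with a set left out. The other 3 lost their call in part of the 15 alternatives, Sf3a3 in 11, Srsf10 in 7 and Hnrnpul1 in 3. With logs averaged over cells 3 members (Hnrnph3, Hnrnpul2, Srsf6) were higher, and among genes with 1 RefSeq mRNA 1 of 16 was lower. With equal set medians 1 member, Srsf12, was higher in Krt14-high cells (3.73, adjusted p = 0.0175, limma), and its adjusted p was 0.0859 to 0.397 under the others. Cell numbers only name libraries, so the replicate block is the series, treatment or set. Without it the lower members were again 13, with Sf3b5 in place of Sf3a3, and the other member counts were again 0. No alternative called a member for treatment or cycling.

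For treatment and series, a fit without 1 set also lost the block, which would leave no residual degree of freedom. Part of the series gap then enters the treatment value and part of the treatment gap the series value. The member median of such fits was -0.48 to 0.063 for treatment and -0.65 to -0.22 for the series. The differences within 1 series or treatment, free of this, had member medians of -0.19 in AG and -0.08 in GHA501A for treatment and of -0.34 in untreated and -0.74 in treated cells for the series. For cycling, where the block stayed, it was 0.26 to 0.39. By Mki67 and Top2a, for which only the AG sets held 5 cells of each class, the cycling median was 0.11. The median correlation became 0.177 in untreated and 0.148 in treated AG cells by Pearson's r, 0.0941 in untreated AG without cells under 5000 genes, and 0.0496 in treated GHA501A given the genes detected.

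Counts over all genes moved more. For cycling, the calls (1.16% of genes higher and 0.0486% lower) became 413 with averaged logs, 87 without the trend, 82 without the block, 65 with 2 equal parts, 21 with all genes kept, and 0 by Mki67 and Top2a or in either series alone. They were 12 and 0 without untreated and treated AG, and 60 and 46 without untreated and treated GHA501A. The 4162 calls for the series became 6305 with averaged logs, 1802 in Krt14-high cells, 2033 among genes with 1 RefSeq mRNA and 1865 to 2677 with a set left out. For treatment 5 genes were called with averaged logs. Between classes 574 were called with equal set medians and 4 with genes over 1 TPM in at least 10% of cells. The causes were not tested. TPM keeps no depth, so low values carry an unknown counting error.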

Other observations

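The 8 cells with conflicting labels all carry AG names. The summed level of the 10 members near 0 in AG was 1.74 to 19.99 TPM in the 5 labelled treated and 3.81 to 6.96 TPM in the 3 labelled untreated. In the 4 sets the same sum had medians of 10.5 and 8.81 TPM in untreated and treated AG cells and of 2844 and 2376 TPM in GHA501A. The sum of the other 27 members was 2830 to 4708 TPM in the 5 and 1890 to 3626 TPM in the 3, beside medians of 4075 and 3380 TPM in AG and of 4191 and 3572 TPM in GHA501A. Krt14 was at 1138 TPM or more in each of the 8 cells.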
